A study of Homo sapiens with 6 samples.

Results

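The latrophilin-type adhesion G protein-coupled receptors ADGRL1, ADGRL2, ADGRL3 and ADGRL4 (formerly LPHN1, LPHN2, LPHN3 and ELTD1) were examined in SU-DHL-2, an established cell line of diffuse large B-cell lymphoma (DLBCL). Probes were assigned to a member when their RefSeq accession mapped to one of the 4 genes. This gave 9 probes among 34127, with 1 for ADGRL1, 4 for ADGRL2, 2 for ADGRL3 and 2 for ADGRL4. The samples were 3 of SU-DHL-2 cells kept for 72 h with the cytokine IL-17A at 200 pg/ml and 3 kept without it (controls). Total RNA of each was labeled with Cy3 and hybridized to a 1-colour Agilent whole human genome array. The labels name no sorting and no genetic alteration of the cells, and both groups came from the same line. The labels do not say whether the samples of a group came from separate cultures, so the spread between them may be technical.

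The family was chosen by the lower ADGRL2 signal with IL-17A on these same arrays, and the study had also picked ADGRL4 on them as a downregulated gene. For all 4 genes the differences between IL-17A and control are therefore given as a description. No p-value is printed for a member, and how many passed the calling thresholds is given only as a description of the rule's own contrast. IL-17A replicate 1 and the 3 controls shared a scan and took the 4 positions of what is here called slide 1, whereas IL-17A replicates 2 and 3 shared another scan, called slide 2. The value on slide 1 is given beside each difference, because it compares arrays of 1 scan. It rests on a single IL-17A array.

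Adhesion G protein-coupled receptors carry a long extracellular region and a domain in which the receptor cuts itself next to the membrane. ADGRL1, the founding member, was found as a receptor of the black widow spider toxin. ADGRL1 to ADGRL3 bind teneurins and FLRT proteins on neighboring cells and are best known from synapse formation. ADGRL4 lacks the lectin-type domain of the others and is best known from endothelial cells and the growth of blood vessels. None of these receptors is a classical B-cell gene. The B-lymphoid markers MS4A1 (CD20), CD79A, PAX5 and IRF4 were detected on all 6 arrays.

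The array files hold no probe sequences. To show the start regions of ADGRL2 and ADGRL4, the members with a listed window that were lower with IL-17A, the 250 bases before the transcription start are given from RefSeq (GRCh38.p14), with matches to the ETS core CCGGAA, the GC box GGGCGG or the TATA box TATAAA, on either strand, in capitals. ADGRL1 had 0 listed windows. ADGRL4 had 1, chr1:79006731-79006980 on the minus strand. ADGRL2 had 8 listed windows, of which the first in the list is shown, chr1:81800126-81800375 on the plus strand.
ADGRL4: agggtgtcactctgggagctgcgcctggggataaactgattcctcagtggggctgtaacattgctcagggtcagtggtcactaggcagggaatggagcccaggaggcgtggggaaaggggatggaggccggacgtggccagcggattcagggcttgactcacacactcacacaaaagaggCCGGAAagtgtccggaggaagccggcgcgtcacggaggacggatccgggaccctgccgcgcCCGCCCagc
ADGRL2: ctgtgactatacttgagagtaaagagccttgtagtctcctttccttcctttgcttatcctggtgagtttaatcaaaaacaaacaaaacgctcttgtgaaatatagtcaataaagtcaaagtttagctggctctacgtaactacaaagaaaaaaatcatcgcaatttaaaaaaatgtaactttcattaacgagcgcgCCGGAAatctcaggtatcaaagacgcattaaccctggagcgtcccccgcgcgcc
The ETS core occurred in the ADGRL4 window and in 1 of the 8 ADGRL2 windows, and in 14.5% of all 35116 windows listed. The GC box occurred in the ADGRL4 window, in 1 of the 8 ADGRL2 windows and in both of the 2 ADGRL3 windows, against 42.6% of all windows. The TATA box occurred in 1 ADGRL2 window, against 10.7%. These matches describe the letters only, and no binding was measured here.

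ADGRL2, a receptor also made outside the nervous system, had the largest difference among the detected members over all 6 arrays, though not on slide 1 alone, where that of ADGRL4 was larger. At its bright probe (A_23_P74042), the deposited intensities were 110.2, 99.9 and 89.0 in control replicates 1 to 3. They were 60.5, 34.3 and 28.6 in IL-17A replicates 1 to 3. Every IL-17A array was lower than every control array, and all 6 arrays detected the probe. After quantile normalization the log2 signal was 6.65 ± 0.09 (SD, n = 3) in the control group, against 5.29 ± 0.54 (SD, n = 3) in the treated group. The log2 difference was -1.36 (standard error 0.27), a 2.57-fold lower signal. The spread with IL-17A came mainly from replicate 1, at 5.90 on the log2 scale, against 5.08 and 4.87 for replicates 2 and 3. On slide 1 alone, IL-17A replicate 1 differed from the mean of the controls by -0.75 on the log2 scale, a 1.68-fold lower signal. Replicates 2 and 3 on the other slide differed from it by -1.67, a 3.19-fold lower signal. The direction was thus present within a scan and the size was not the same on both slides. With normexp background correction (offset 50), which compresses dim signals, the difference was -0.56.

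A dimmer ADGRL2 probe (A_33_P3307363) was lower on average too. Its intensities were 14.5, 12.6 and 9.65 in the controls and 10.2, 6.32 and 4.51 with IL-17A. Here the groups overlapped, since IL-17A replicate 1 was above control replicate 3, and IL-17A replicate 3 was not detected. The log2 signal was 3.56 ± 0.26 (SD, n = 3) in the control group, against 2.77 ± 0.59 (SD, n = 3) in the treated group, a log2 difference of -0.79 (standard error 0.32). On slide 1 the difference was -0.16, within the spread of the controls, and on slide 2 it was -1.10. The 2 probes therefore had the same gap between the slides within the IL-17A group, with log2 differences of -0.92 and -0.94 between replicates 2 and 3 and replicate 1, and unequal gaps within slide 1. The remaining 2 ADGRL2 probes (A_33_P3404879 and A_33_P3404899) were detected on no array, with deposited intensities of 0.929 to 3.16 and 1.09 to 1.48, and no fold change is given for them.

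ADGRL4 was measured near the detection limit. At probe A_23_P62741 the intensities were 14.1, 8.10 and 8.64 in the controls and 5.02, 5.37 and 4.55 with IL-17A. Every IL-17A array was below every control array, and IL-17A replicate 3 was not detected. The log2 signal was 3.28 ± 0.37 (SD, n = 3) in the control group, against 2.36 ± 0.11 (SD, n = 3) in the treated group. The log2 difference was -0.92 (standard error 0.19), a 1.90-fold lower signal. Unlike ADGRL2, it was nearly the same on the slides, with -0.90 on slide 1 and -0.93 on slide 2. With normexp background correction it was -0.04.

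The other ADGRL4 probe (A_33_P3362611) did not show this pattern. Its intensities were 4.24, 5.67 and 6.84 in the controls, and 10.95, 1.78 and 2.32 in IL-17A replicates 1 to 3. The highest and the lowest values of the 6 arrays were thus both with IL-17A. It was detected on only 2 arrays, IL-17A replicate 1 and control replicate 3, and was left out of the fit by the requirement of 3. No difference is given for it, because 4 of its 6 values were not above background. Which of the probes follows the ADGRL4 transcript was not tested.

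**Figure D1:**
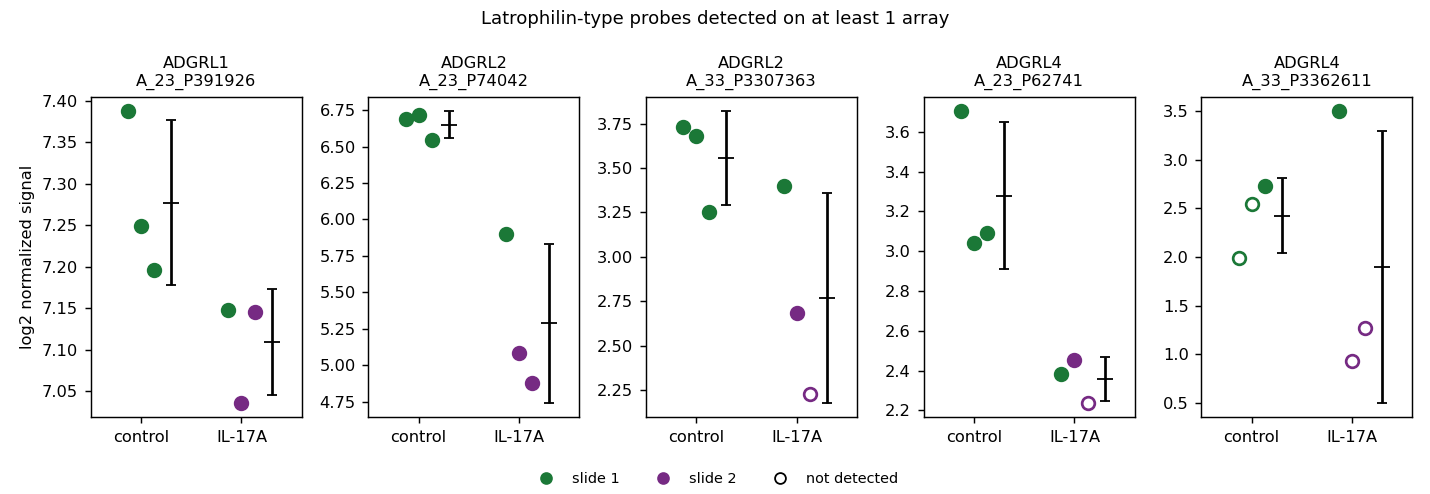
Log2 normalized signal (vertical axis, its own range in each panel) of the 5 latrophilin-type probes detected on at least 1 array, in the 3 control and 3 IL-17A arrays. Points are arrays, green for slide 1 and purple for slide 2, open where the probe was not detected, and black bars are the mean and SD (n = 3). The groups are apart at ADGRL1, at ADGRL2 probe A_23_P74042 and at ADGRL4 probe A_23_P62741, and overlap at the other 2 probes.

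**Figure D2:**
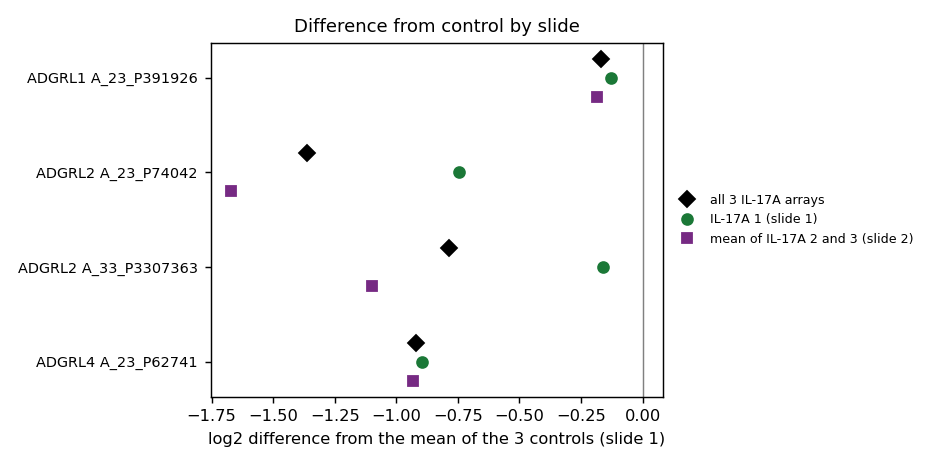
Log2 difference from the mean of the 3 controls for the 4 tested probes, for all 3 IL-17A arrays (diamonds), for IL-17A replicate 1 on the slide of the controls (circles) and for the mean of IL-17A replicates 2 and 3 (squares). ADGRL2 lies at -0.75 and -1.67 at its bright probe, and ADGRL4 at -0.90 and -0.93 at probe A_23_P62741.

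ADGRL1, measured by 1 probe (A_23_P391926), differed least among the detected members. The intensities were 178.5, 143.9 and 140.4 in the controls and 144.2, 134.7 and 139.9 with IL-17A, and all arrays detected it. Before normalization the groups thus overlapped, since IL-17A replicate 1 was above control replicates 2 and 3. After normalization every IL-17A array was below every control array, with 7.28 ± 0.10 (SD, n = 3) in the control group, against 7.11 ± 0.06 (SD, n = 3) in the treated group. The log2 difference of -0.17 (standard error 0.07), a 1.12-fold lower signal, was far under the 1.5-fold threshold used for calls. It was -0.13 on slide 1. Control replicate 1 was the highest array, and without it the difference was -0.11.

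ADGRL3, the member best known from brain development, was not detected. Its single-spot probe (A_33_P3216746) had intensities of 1.02 to 1.37 on the 6 arrays. The other probe (A_23_P10980) is printed in 10 spots on each array, which gave 60 readings with a median of 1.00. Of these, 1 was marked as well above background, a spot of IL-17A replicate 3 at 11.7, and the next highest of the 60 was 1.75. The other 9 spots of that array reached at most 1.58. The mean log2 intensity of the 10 spots was 0.45 on that array before normalization, and 0.10 without the bright spot. No order of the arrays is read from signals that none of them detected.

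**Figure D3:**
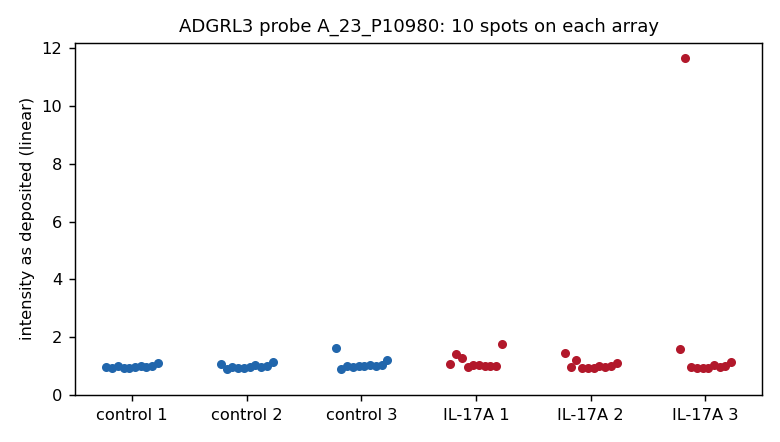
Deposited intensity (linear scale) of each of the 10 spots of the ADGRL3 probe A_23_P10980 on the 6 arrays, controls in blue and IL-17A in red. A single spot of IL-17A replicate 3 lies at 11.7, and all other spots lie at 1.75 or below.

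Of the 9 probes, 4 were detected on at least 3 of the 6 arrays and entered the fit, and all 4 were lower with IL-17A. The calling thresholds were a fold change of 1.5 or more and an unadjusted p under 0.05, which the study's methods name for filtering, applied here to the fit by limma, which those methods do not name. The methods also set a false discovery rate under 0.05 for significant genes, which the calls here did not require. The calling thresholds were met by 3 of the 4 (both ADGRL2 probes and ADGRL4), where 1.17% of all 23945 tested probes met them in this direction. By the methods' t-test 2 of the 4 met them, and 186 probes of the whole array were called lower by that test. The dimmer ADGRL2 probe also dropped out with slide as a block, without a detection filter, and when any single array other than IL-17A replicate 1 was left out. After normalization the groups did not overlap for 3 of the 4 (ADGRL1, the bright ADGRL2 probe and ADGRL4), against 18.0% of all tested probes in this direction. These counts come from the contrast that chose the family, and nothing is read from them. Across all tested probes the median log2 difference was 0.01, and 281 probes were called lower and 241 higher. Among the 281, IL-17A replicate 1 was the highest of the IL-17A arrays for 140 (49.8%), as it was for both ADGRL2 probes, so that this order of the arrays was common among the lower probes.

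Of the proteins that latrophilins bind or act with, none of those tested passed both thresholds, and many could not be tested. The list held 18 ligands and partners, the teneurins, FLRT proteins, UNC5 receptors, neurexins, CNTN6 and the SHANK scaffolds. A named probe was found for 17, and 9 were tested. None of the 4 teneurins (TENM1 to TENM4), the main partners across the synapse, was detected on 3 arrays, nor were FLRT2 and FLRT3. By limma 0 of the 9 passed both thresholds, with 0.814% of all 14747 named genes called higher and 1.11% called lower at their brightest tested probe. At an unadjusted p under 0.05 from limma there was 1 gene, SHANK1, a scaffold protein of synapses. No share of all genes at that level is given, so nothing is read from this count. By the methods' t-test 0 of the 9 passed both thresholds. SHANK1 had log2 signals of 3.72, 3.67 and 3.53 in the controls and 3.36, 3.44 and 3.11 with IL-17A, a log2 difference of -0.34 (standard error 0.10, adjusted p = 0.0933 from limma). SHANK2 differed by -0.79 (standard error 0.33, adjusted p = 0.172 from limma) with 1 IL-17A array and 2 controls detected, and UNC5C, a netrin receptor, by -0.31 (adjusted p = 0.545). The median log2 difference of the 9 genes was -0.01, against 0.00 over all tested genes.

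Of 28 other adhesion G protein-coupled receptors, 25 had a named probe and 14 were tested. Of these 14, 1 passed both thresholds, ADGRG5, a receptor of leukocytes, which was lower with IL-17A, where 1.11% of all tested genes were called lower. Its log2 signals were 3.36, 3.39 and 3.04 in the controls and 3.06, 1.64 and 2.15 with IL-17A, so that the groups overlapped at IL-17A replicate 1, and it was detected on 1 IL-17A array and all 3 controls. The log2 difference was -0.98 (standard error 0.36, adjusted p = 0.138 from limma), and on slide 1 it was -0.20. The call was lost when any array other than IL-17A replicate 1 was left out, and by the methods' t-test. The median log2 difference of the 14 was -0.04, with 6 higher and 8 lower. ADGRE5 (CD97), a well detected adhesion receptor of blood cells, had the smallest difference of the 14. It measured 10.17 ± 0.04 on the log2 scale (SD, n = 3) in the treated group, against 10.18 ± 0.01 (SD, n = 3) in the control group, a difference within the replicate spread. ADGRA2 and CELSR3, also detected on all arrays, had log2 differences of 0.12 (adjusted p = 0.101 from limma) and 0.13 (adjusted p = 0.158 from limma).

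Downstream of these receptors, 15 of 21 G protein subunits and effectors were tested and 0 passed both thresholds by limma or by the methods' t-test. By limma 1.11% of all tested genes were called lower and 0.814% higher. At an unadjusted p under 0.05 from limma there were 3 of the 15. The share of all genes at that level is not given, so nothing is read from this count. PLCB2, a phospholipase that G proteins activate, was lower by 0.33 on average, with log2 signals of 6.85, 6.87 and 6.75 in the controls and 6.55, 6.51 and 6.41 with IL-17A (standard error 0.06, adjusted p = 0.0375 from limma). GNA12, the alpha subunit of G12, named after its values were seen, had a log2 difference of -0.26 (standard error 0.04, adjusted p = 0.0349 from limma). Both changes were below 1.5-fold. Over the whole array, 197 probes passed both thresholds and had an adjusted p under 0.05 from limma, and 4 did with replicate number as a block. These counts require a 1.5-fold change, so PLCB2 and GNA12 are not among them. The number of probes with an adjusted p under 0.05 at any fold change is not given. An adjusted p here thus depends on the fit. PLCB1 had a log2 difference of 0.27 (adjusted p = 0.517) and ARHGEF11, a guanine nucleotide exchange factor, of 0.26 (adjusted p = 0.159). The median over the 15 genes was -0.04.

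Endothelial genes were looked at beside ADGRL4, since it is itself one of them. Of 20 endothelial markers, 18 were tested, and 5 passed both thresholds, all lower with IL-17A, where 1.11% of all tested genes were called lower. They were EMCN and CLEC14A, both endothelial surface glycoproteins, MMRN1, a protein stored by platelets and endothelium, SOX17, a transcription factor of arterial endothelium, and EGFL7, a secreted protein of growing vessels. EMCN had log2 signals of 3.53, 3.91 and 3.83 in the controls and 2.82, 2.53 and 2.35 with IL-17A (log2 difference -1.19, standard error 0.16, adjusted p = 0.0321 from limma). CLEC14A differed by -0.81 (standard error 0.11, adjusted p = 0.0326) and MMRN1 by -0.90 (standard error 0.16, adjusted p = 0.0392). SOX17 differed by -0.90 (adjusted p = 0.0521) and EGFL7 by -1.57 (adjusted p = 0.0543). On slide 1 the 5 differences were -0.93 for EMCN, -0.84 for CLEC14A, -1.07 for MMRN1, -0.79 for SOX17 and -0.95 for EGFL7. With normexp background correction 0 of the markers passed both thresholds. The number of called markers with an adjusted p under 0.05, 3 here, was 0 with slide or replicate number as a block, by the methods' t-test, and when any single array other than control replicate 3 was left out, and 1 without that array.

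Over the 18 tested markers, 16 were lower and 2 higher with IL-17A, with a median log2 difference of -0.32. The study had itself picked EMCN, MMRN1 and SOX17 on these arrays, and the list was written with earlier results known, so its count is not independent evidence of a direction. The summed normalized signal of the list was 508 to 595 on the IL-17A arrays and 678 to 727 on the control arrays, with 15 of the 20 markers detected on all 6 arrays. The 15 included PECAM1, CDH5, VWF and TEK, while KDR and ERG were detected on no array. The summed signal of 6 T-cell markers, each detected on all 6 arrays, was also lower with IL-17A, at 1041 to 1139 against 1217 to 1412. The summed signals of 9 B-lymphoid markers overlapped between the groups, at 44190 to 45709 with IL-17A and 45152 to 46447 in the controls. Those of the 4 named above, a choice made after their values were seen, were 12688 to 13677 against 14614 to 15001. Of 4 monocyte markers with a probe, 2 were detected on all arrays and CSF1R on none, with sums of 96.7 to 101 against 102 to 148. Of 6 mesenchymal markers, 1 was detected on all arrays and 3 on none, with overlapping sums. In RNA of whole cultures, fewer cells of a kind and less RNA in each cell cannot be told apart. Whether any cells other than SU-DHL-2 were present was not tested, nor was the part of either in the lower ADGRL2 and ADGRL4 signals.

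**Figure D4:**
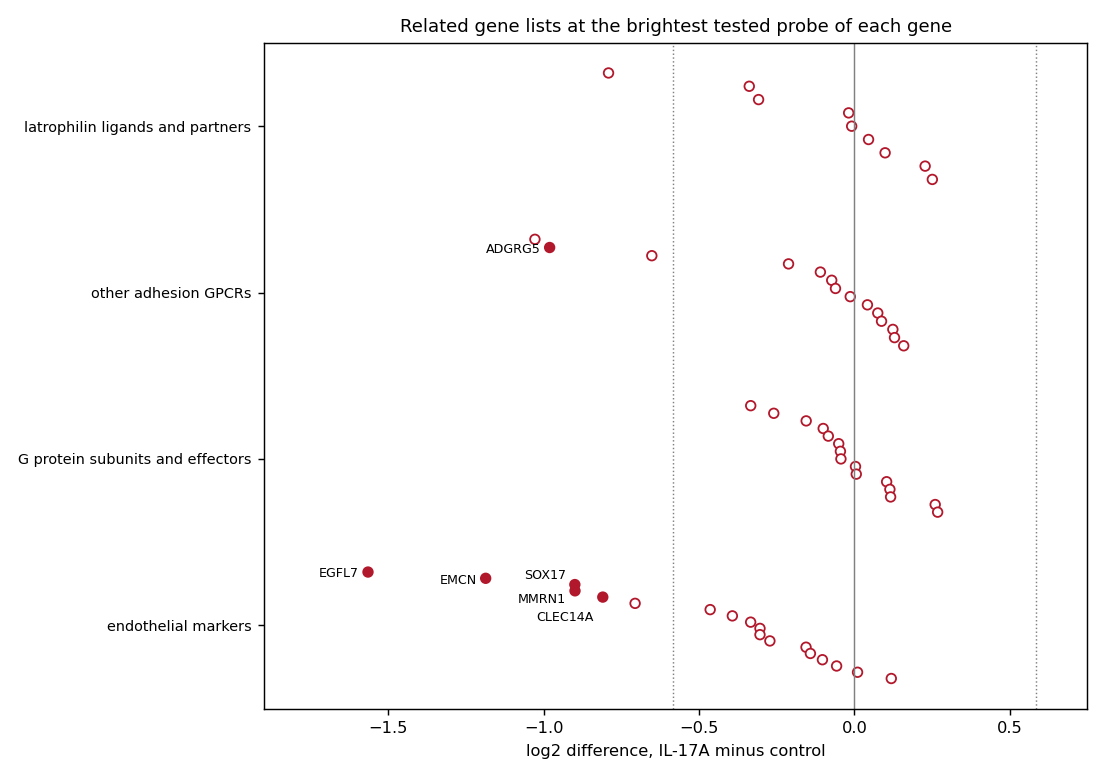
Log2 difference (IL-17A minus control) of each tested gene of the 4 lists, at its brightest tested probe. Filled points passed both thresholds and are named, open points did not, and dotted lines mark a 1.5-fold change. The latrophilin partners and the G protein genes hold 0 filled points, the other adhesion receptors hold ADGRG5, and the endothelial markers hold 5, all at negative values.

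The genes whose pattern was most like that of ADGRL2 were sought over the 6 arrays among 14746 other named genes, by the root mean square difference of log2 signals centred on the mean of each gene. The closest were KIAA1614, at 0.08 on the log2 scale, MADCAM1, at 0.18, DACH1, at 0.20, P2RY6, at 0.22, and CRHR2, at 0.24. MADCAM1, an adhesion molecule that guides lymphocytes into the gut, was the brightest of these. Its log2 signals were 10.43, 10.28 and 10.09 in the controls and 9.57, 8.98 and 8.92 with IL-17A. As for ADGRL2, IL-17A replicate 1 lay between the controls and the other IL-17A arrays. P2RY6, a nucleotide receptor, had 4.61, 4.57 and 4.76 in the controls and 4.17, 3.41 and 3.37 with IL-17A. The same order held for CRHR2, a corticotropin-releasing hormone receptor. KIAA1614 was detected on 3 arrays and DACH1, a transcription factor, on 4. In IL-17A replicates 2 and 3 the log2 signals were 1.44 and 1.34 for KIAA1614, and 0.98 and 1.15 for DACH1. These lay under the lowest log2 signal well above background (1.86 to 2.11 per array), so no order of the arrays is read from them. These genes were found by their likeness on the same arrays, and their closeness is a description of 6 values.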

How the data were processed

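RNA of 6 SU-DHL-2 samples was measured on Agilent 1-colour arrays. In the authors' files, made with Agilent Feature Extraction 11.0.1.1, the deposited values are a background-subtracted intensity per spot on a linear scale, not normalized between arrays, with the median brightness of spot and background and flags of 0 or 1 (other). The deposited series matrix holds log2 values that the authors quantile normalized with a floor for low values (correlation with the log2 intensities 0.9996 to 0.9998 across probes), and served as an alternative.

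Control spots and spots flagged as non-uniform (4 to 25 per array) were left out, intensities below 1 were set to 1, spots of a probe were averaged as log2 values, and arrays were quantile normalized. A probe was detected on an array when at least 0.5 of its spots were positive, significant and well above background, and 23945 of 34127 probes detected on at least 3 arrays were tested. The arrays detected 23570 to 24077 probes, and 0 spots were saturated. The lowest normalized signal well above background was 3.62 to 4.32 per array, and the number of arrays limits the precision. Accessions were named with the RefSeq table of GRCh38.p14 (25771 probes, 19740 genes). A gene of a list was represented by its brightest tested probe.

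The groups were compared by a two-sided test with no covariates in limma 3.58.1, run in R 4.3.3. A probe was called when its fold change reached 1.5 and its p was under 0.05, and p-values were also adjusted by Benjamini-Hochberg across the tested probes. The procedure was tested on simulated data. The members and lists were chosen with earlier results of these data known. Named genes were all members, the called genes of each list or, with none, its 3 largest differences, and the 5 profiles closest to ADGRL2. ADGRE5, ADGRA2, CELSR3, GNA12 and the genes named for detection were chosen after their values were seen. Replicate numbers were not taken as pairs (correlations of same-numbered deviations -0.09, -0.00 and -0.05). The slide was inferred from scan and array position. Alternatives were other normalizations, background correction, filters, floors, blocks, tests, and each array left out. One B-lymphoid marker is not reported here.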

Additional observations from a re-analysis of the deposited data

How the results depend on the processing

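The direction of ADGRL1, of both detected ADGRL2 probes and of ADGRL4 probe A_23_P62741 was lower with IL-17A under every alternative run. The bright ADGRL2 probe ranged from -1.67 (without IL-17A replicate 1) to -0.56 (normexp background correction with an offset of 50), and was -0.75 with slide as a block. The dimmer ADGRL2 probe was -0.10 and ADGRL4 probe A_23_P62741 was -0.04 under normexp, where 0 member probes passed both thresholds. The second ADGRL4 probe, detected on 2 arrays, had no stable direction. Of 77 values of member probes under alternatives, 70 moved by less than 1 SD between replicates and 7 by more. Some of the 70 could not move, because dropping the detection filter or adding the replicate block leaves the difference of a probe unchanged. The SD also holds the gap between the slides, so nothing on stability is read from this count. ADGRL4 rests on signals of 4.55 to 14.1, near the detection limit.

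The number of tested probes past both thresholds was 522, against 15 under normexp, 299 with probes detected on all 6 arrays and 978 without a detection filter. With the replicate block it was 527, with 4 at an adjusted p under 0.05 against 197, a number that ranged from 2 to 179 with an array left out. After scaling to the 75th percentile 150 were higher and 422 lower. The 0 called partners became 1 with 75th percentile scaling, no normalization or the replicate block (SHANK2 each time), 1 with slide as a block (UNC5C), and 0 to 1 with an array left out (CNTN6 higher without IL-17A replicate 1, SHANK2 lower without IL-17A replicate 2). The 1 called adhesion receptor became 0 under normexp, with detection on all 6 arrays, without a filter or by the methods' t-test, 2 with a variance trend, and 0 to 2 with an array left out; with slide as a block ADGRF5 replaced ADGRG5. Of the G protein genes, 1 was called without a filter (GNA15) and 1 at any tested probe (GNAO1). The 5 endothelial genes were 0 under normexp, 4 of the same genes with detection on all 6 arrays (without EMCN) or slide as a block (without EGFL7), and 5 to 6 with an array left out. The cause of these changes was not tested.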
